A study of Mus musculus with 20 samples.

Results

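Dividing cells carry a set of genes that are read in 2 waves, and 53 of them were followed here in the epididymal white adipose tissue (eWAT) of mice. They are 16 genes of the G1/S transition and DNA replication and 37 genes of mitosis, taken from a list by name, and all 53 were among the 14776 genes of the deposited table. RNA was sequenced from 20 male C57BL/6J mice. Feeding started at 6 weeks of age, the NC group (6 mice) received normal maintenance feed, and the HFD and SZ-A groups (7 mice each) received a high-fat diet that drew 60% of its calories from fat. After 14 weeks the HFD mice were given saline, and the SZ-A mice were given Ramulus Mori (Sangzhi) alkaloids, an extract of mulberry twig, at 400 mg/kg per day into the stomach for 6 weeks, with the high-fat diet continued in both. The label of the NC group names the feed only, and every mouse was a separate sample, so the p-values below measure the spread between mice. The expression unit is FPKM, fragment counts scaled to exon length and library size. All log2 fold changes are differences of log2(FPKM + 1) unless voom is named, and gene positions are those of GENCODE M21 on GRCm38.

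At the G1/S transition, cyclins D and E with their kinases inactivate the retinoblastoma protein and free E2F transcription factors, which then drive genes for the loading of the MCM helicase, for deoxynucleotide supply and for the replication fork. In G2 and mitosis, cyclins A and B with Cdk1, the Aurora and Polo kinases, spindle motors and kinetochore proteins separate the chromosomes, and the anaphase-promoting complex (APC/C) ends the phase by tagging cyclins and other proteins for degradation. Mature adipocytes do not divide, so in adult fat tissue this programme is known from precursor, endothelial and immune cells, including macrophages that divide within the tissue of obese animals.

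Most members rose with the high-fat diet and were lower again under SZ-A, at every step of the cycle. Of the 53, 49 were higher in HFD than in NC mice and 0 were lower (limma, Benjamini-Hochberg adjusted p under 0.05 over 14706 genes, of which 21.0% were higher and 20.1% lower). Of the 53, 42 were lower under SZ-A than with HFD and saline and 0 were higher (14695 genes tested, 13.3% lower and 9.47% higher). At an unadjusted p under 0.05 the opposite directions also held 0 members in both comparisons, as they did by voom on the recovered reads (19.2% of all genes lower in HFD and 9.53% higher under SZ-A). The median log2 fold change of the members was 1.12 for HFD against NC and -0.71 for SZ-A against HFD, where the medians of all genes tested were -0.04 and 0.03. Both comparisons use the same 7 HFD mice, so their values are set side by side and are not independent of each other. In whole tissue, a change in the number of dividing cells and a change in RNA per cell cannot be told apart.

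The size of the changes was moderate on this scale. The methods of the study set its threshold on the log2 scale, whereas its results word it as a plain fold change. A log2 fold change beyond 1.5 was then asked for as well, on the log2(FPKM + 1) scale. It left 16 members higher in HFD (5.43% of all genes) and 0 lower in SZ-A (0.558% of all genes). With a fold change beyond 1.5 in its place, a log2 fold change of 0.58, 45 were higher in HFD (15.1% of all genes) and 34 lower in SZ-A (7.37% of all genes). All 7 HFD mice stood above all 6 NC mice for 37 members (12.7% of all genes), and all 7 SZ-A mice stood below all 7 HFD mice for 10 members (4.01% of all genes). These 10 were Mcm6, Pcna, Dck, Bub1, Bub1b, Kif11, Cenpe, Ect2, Racgap1 and Top2a. In NC mice 31 members, 27 of them mitotic, averaged below 1 FPKM, where adding 1 before the logarithm compresses a difference. On the recovered reads, fitted with voom, the median log2 fold changes of the 16 G1/S members were 1.63 and -0.92 and those of the 37 mitotic members 2.27 and -1.25, in place of 1.05 and -0.75 and of 1.12 and -0.71. The voom medians of all 53 members were 2.12 and -1.12. The counts beyond 1.5 above therefore hold for the log2(FPKM + 1) scale only. By voom some members called for SZ-A against HFD passed 1.5, among them Ccnb1 and Bub1, both at -1.63 (adjusted p = 0.0041 and 0.0044).

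**Figure D1:**
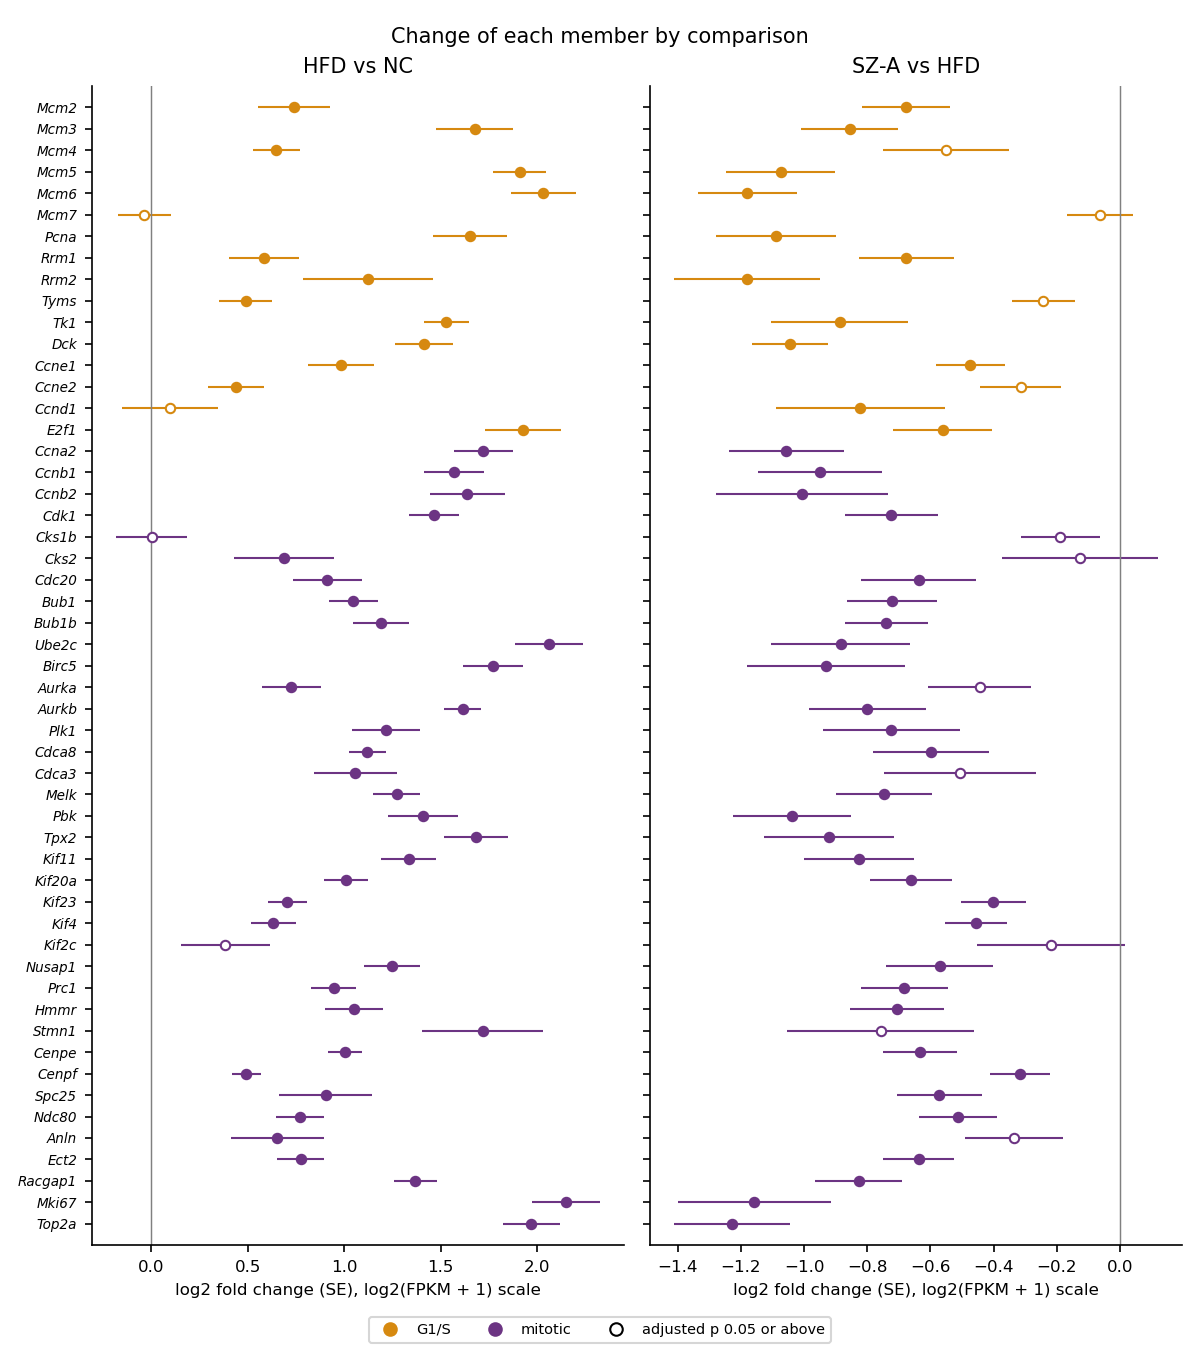
Log2 fold change of each member with its SE, on the log2(FPKM + 1) scale, for HFD against NC (left) and SZ-A against HFD (right), with G1/S members in orange, mitotic members in purple and open circles where the adjusted p was 0.05 or above. The left panel has 49 filled points, all above 0, and the right panel 42, all below 0, while Mcm7 and Cks1b lie near 0 in both.

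Between 13567667 and 19388628 reads per mouse lay on the deposited genes, and a member had between 2 and 4366 reads in a mouse. In 7 members (Ccne1, Ccnb1, Bub1, Melk, Kif4, Hmmr and Ndc80) at least 1 mouse had fewer than 10 reads, and 8 members had 100 or more in every mouse. NC replicate 6 stood apart from its group, with a median Spearman correlation of 0.758 to the other NC mice against 0.867 to 0.948 in the rest, the fewest reads, and Adipoq, an adipocyte hormone, at 26.6 FPKM against 859 to 2278. SZ-A replicate 5 had 11.6% mitochondrial reads. Of 9 epididymis epithelium markers listed, 3 were in the table (Spint2, Adgrg2 and Krt18), while Lcn5, Lcn8, Crisp1, Adam7, Defb20 and Defb25 were not. The 3 summed to over 200 FPKM in NC replicates 1, 2 and 6 and SZ-A replicates 2 and 7, and to at most 7.66 in the HFD mice. Whether this sum stands for epididymis tissue was not tested. With those 5 mice left out, 48 members were higher in HFD than in NC and 45 lower under SZ-A than in HFD. Exons of 15 members share bases with another annotated gene, up to 29.3% of the exon length for Kif20a, and where strand is not used in counting such reads cannot be told apart.

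Both proliferation markers were among the members with the largest changes on this scale. Mki67 (ENSMUSG00000031004, chr7:135689784-135716361, minus strand), which coats mitotic chromosomes and marks cycling cells, ranged from 0.401 to 1.36 FPKM in the 6 NC mice (median 0.621), from 4.65 to 9.65 FPKM in the 7 HFD mice (median 6.63) and from 0.993 to 5.42 FPKM in the 7 SZ-A mice (median 2.36). All HFD mice stood above all NC mice, while SZ-A replicate 5, the highest of its group, lay inside the HFD range. Its log2 fold changes were 2.15 (SE 0.18, adjusted p = 7.4e-07) for HFD against NC and -1.16 (SE 0.24, adjusted p = 0.0043) for SZ-A against HFD, or 9.07-fold higher and 2.54-fold lower by mean FPKM. Top2a (ENSMUSG00000020914, chr11:98992943-99024189, minus strand), the topoisomerase that untangles sister chromatids, ranged from 0.445 to 1.32 FPKM in the 6 NC mice (median 0.626), from 4.14 to 7.06 FPKM in the 7 HFD mice (median 6.11) and from 0.818 to 3.15 FPKM in the 7 SZ-A mice (median 2.22). Here the HFD group overlapped neither of the others. The log2 fold changes were 1.97 (SE 0.15, adjusted p = 3.2e-07) for HFD against NC and -1.23 (SE 0.18, adjusted p = 0.00074) for SZ-A against HFD.

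**Figure D2:**
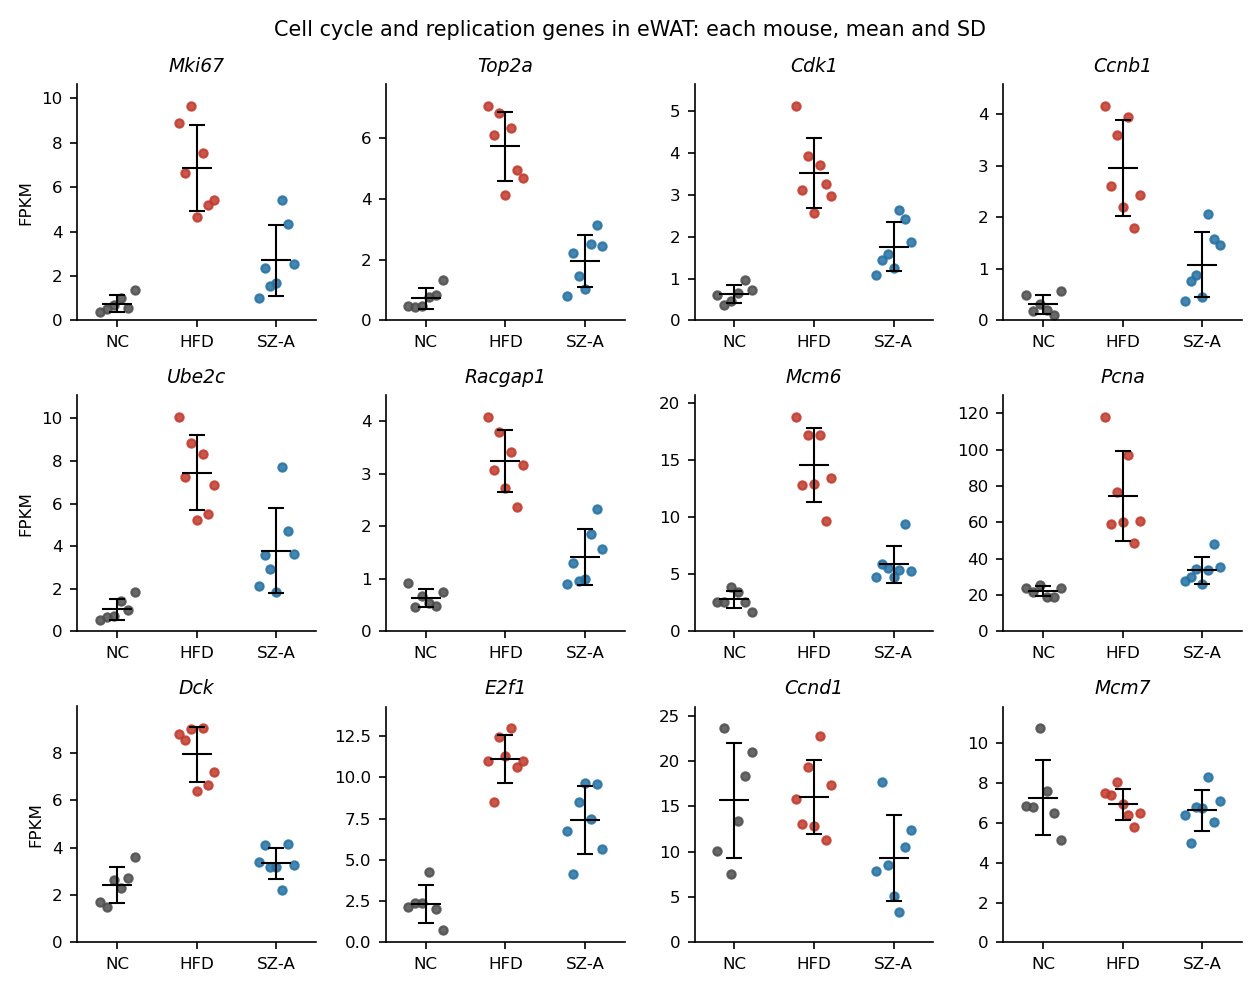
FPKM of 12 members in each mouse (points, in replicate order within a group), with the mean (dash) and SD (bars) of 6 NC, 7 HFD and 7 SZ-A mice, each panel with its own axis from 0. In 10 panels the HFD mean is the highest and the SZ-A mean lies between, whereas Ccnd1 was at like levels in NC and HFD (15.7 and 16.1) and Mcm7 near 7 FPKM in all groups.

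The helicase and the fork came first in the order of events and did not move as a block. Of the 7 members that load the helicase or act at the fork, 6 were higher in HFD and 5 lower in SZ-A. Mcm6 (ENSMUSG00000026355, chr1:128331590-128359664, minus strand), a subunit of the MCM2-7 helicase, ranged from 1.69 to 3.91 FPKM in the 6 NC mice (median 2.6), from 9.67 to 18.8 FPKM in the 7 HFD mice (median 13.4) and from 4.78 to 9.44 FPKM in the 7 SZ-A mice (median 5.41). HFD mice overlapped neither group, and SZ-A mice stood above all NC mice. On the log2 scale the differences were 2.03 (SE 0.17, adjusted p = 8.8e-07) for HFD against NC and -1.18 (SE 0.16, adjusted p = 0.00038) for SZ-A against HFD. Pcna (ENSMUSG00000027342, chr2:132249162-132253314, minus strand), the sliding clamp of the DNA polymerases, ranged from 18.8 to 25.5 FPKM in the 6 NC mice (median 22.7), from 48.8 to 118 FPKM in the 7 HFD mice (median 61) and from 26 to 47.9 FPKM in the 7 SZ-A mice (median 33.7). It had the highest level of the replication members in HFD tissue, and the 3 groups did not overlap. By limma, the log2 fold changes were 1.65 (SE 0.19, adjusted p = 1.9e-05) for HFD against NC and -1.09 (SE 0.19, adjusted p = 0.0017) for SZ-A against HFD.

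The other MCM subunits differed among themselves. Mcm5 averaged 1.21 ± 0.287 (NC), 7.37 ± 1.47 (HFD) and 3.06 ± 1.25 (SZ-A) FPKM ± SD, with log2 fold changes of 1.91 (SE 0.14, adjusted p = 2.7e-07) and -1.07 (SE 0.17, adjusted p = 0.0011). Mcm3 averaged 2.74 ± 0.985 (NC), 10.8 ± 2.45 (HFD) and 5.5 ± 1.4 (SZ-A) FPKM ± SD, with log2 fold changes of 1.68 (SE 0.20, adjusted p = 2.2e-05) and -0.86 (SE 0.15, adjusted p = 0.002). Mcm2 averaged 1.88 ± 0.862 (NC), 3.67 ± 0.74 (HFD) and 1.94 ± 0.602 (SZ-A) FPKM ± SD, with log2 fold changes of 0.74 (SE 0.19, adjusted p = 0.0063) and -0.68 (SE 0.14, adjusted p = 0.0039). These 3 subunits were called in both comparisons. Mcm4 averaged 4.73 ± 0.543 (NC), 8.04 ± 1.35 (HFD) and 5.41 ± 1.91 (SZ-A) FPKM ± SD, with log2 fold changes of 0.65 (SE 0.12, adjusted p = 0.00091) and -0.55 (SE 0.20, adjusted p = 0.059), so that only its rise passed the test. Mcm7 (ENSMUSG00000029730, chr5:138164583-138172422, minus strand) ranged from 5.13 to 10.8 FPKM in the 6 NC mice (median 6.82), from 5.77 to 8.04 FPKM in the 7 HFD mice (median 6.95) and from 4.97 to 8.3 FPKM in the 7 SZ-A mice (median 6.74), and the 3 groups overlapped throughout. Its log2 fold changes were -0.04 (SE 0.14, adjusted p = 0.86) for HFD against NC and -0.06 (SE 0.10, adjusted p = 0.68) for SZ-A against HFD, the smallest difference of SZ-A against HFD among the members. In the annotation 7.25% of the exon bases of Mcm7 are shared with Ap4m1 on the opposite strand.

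All 5 genes of deoxynucleotide supply were higher in HFD, and 4 were lower in SZ-A. Dck, the kinase that salvages deoxycytidine, ranged from 1.48 to 3.59 FPKM in the 6 NC mice (median 2.46), from 6.4 to 9.05 FPKM in the 7 HFD mice (median 8.54) and from 2.22 to 4.15 FPKM in the 7 SZ-A mice (median 3.25). HFD mice stood above both other groups without overlap. The log2 fold changes were 1.41 (SE 0.15, adjusted p = 7.4e-06) for HFD against NC and -1.05 (SE 0.12, adjusted p = 0.00029) for SZ-A against HFD. Tk1 averaged 0.611 ± 0.177 (NC), 3.68 ± 0.716 (HFD) and 1.7 ± 1.26 (SZ-A) FPKM ± SD, with log2 fold changes of 1.53 (SE 0.12, adjusted p = 4.7e-07) and -0.89 (SE 0.22, adjusted p = 0.01), the thymidine kinase of S phase. Rrm1 averaged 2.82 ± 1.25 (NC), 4.57 ± 0.842 (HFD) and 2.53 ± 0.84 (SZ-A) FPKM ± SD, with log2 fold changes of 0.58 (SE 0.18, adjusted p = 0.019) and -0.68 (SE 0.15, adjusted p = 0.0061), and Rrm2 averaged 2.79 ± 2.6 (NC), 6.18 ± 1.84 (HFD) and 2.27 ± 1.24 (SZ-A) FPKM ± SD, with log2 fold changes of 1.12 (SE 0.34, adjusted p = 0.017) and -1.18 (SE 0.23, adjusted p = 0.003), which encode the large and the small subunit of ribonucleotide reductase. Rrm2 reached 7.56 FPKM in NC replicate 1, inside the HFD range. Tyms averaged 0.744 ± 0.362 (NC), 1.42 ± 0.338 (HFD) and 1.04 ± 0.193 (SZ-A) FPKM ± SD, with log2 fold changes of 0.49 (SE 0.14, adjusted p = 0.011) and -0.24 (SE 0.10, adjusted p = 0.09), the thymidylate synthase, whose difference between SZ-A and HFD did not pass the test.

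Among the 4 regulators of G1/S, E2f1 and Ccne1 were called in both comparisons. E2f1, a transcription factor that drives S-phase genes, ranged from 0.761 to 4.27 FPKM in the 6 NC mice (median 2.26), from 8.5 to 13 FPKM in the 7 HFD mice (median 11) and from 4.12 to 9.64 FPKM in the 7 SZ-A mice (median 7.48). HFD mice stood above all NC mice, and the SZ-A mice overlapped both groups. On the log2 scale the differences were 1.93 (SE 0.20, adjusted p = 5.5e-06) for HFD against NC and -0.56 (SE 0.16, adjusted p = 0.019) for SZ-A against HFD, and the SZ-A level also exceeded NC with a log2 difference of 1.36 (SE 0.24, adjusted p = 0.0049). The difference of E2f1 between SZ-A and HFD did not pass with all 3 groups in the fit (adjusted p = 0.059). Ccne1 averaged 0.704 ± 0.547 (NC), 2.26 ± 0.429 (HFD) and 1.35 ± 0.312 (SZ-A) FPKM ± SD, with log2 fold changes of 0.98 (SE 0.17, adjusted p = 0.00052) and -0.47 (SE 0.11, adjusted p = 0.0074), a cyclin of Cdk2 at S-phase entry. Ccne2 averaged 0.887 ± 0.354 (NC), 1.57 ± 0.501 (HFD) and 1.05 ± 0.276 (SZ-A) FPKM ± SD, with log2 fold changes of 0.44 (SE 0.15, adjusted p = 0.028) and -0.31 (SE 0.13, adjusted p = 0.087), the other E-type cyclin, called for its rise alone, which did not pass with the mice high in epididymis markers left out (adjusted p = 0.22).

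Ccnd1 (ENSMUSG00000070348, chr7:144929931-144939925, minus strand), the D-type cyclin that couples growth signals to the cycle, did not follow the other members. It ranged from 7.56 to 23.6 FPKM in the 6 NC mice (median 15.9), from 11.3 to 22.8 FPKM in the 7 HFD mice (median 15.8) and from 3.4 to 17.6 FPKM in the 7 SZ-A mice (median 8.54). NC and HFD mice covered like ranges, and SZ-A replicates 1, 3, 4, 5 and 6 lay below the lowest HFD mouse. By limma, the log2 fold changes were 0.1 (SE 0.25, adjusted p = 0.78) for HFD against NC and -0.82 (SE 0.27, adjusted p = 0.038) for SZ-A against HFD. The second call was lost in several settings, with a log2 fold change of the same sign, among them when all 3 groups were fitted together (adjusted p = 0.058), under quantile normalization (adjusted p = 0.051), and in 7 of 14 fits that left out a single mouse (HFD replicates 1, 3, 5 and 7 and SZ-A replicates 1, 3 and 4, adjusted p from 0.062 to 0.084), and adjusted p ranged from 0.0057 to 0.084 over all alternatives. Of its exon bases, 23.4% are shared with a gene on the opposite strand, LTO1.

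**Figure D3:**
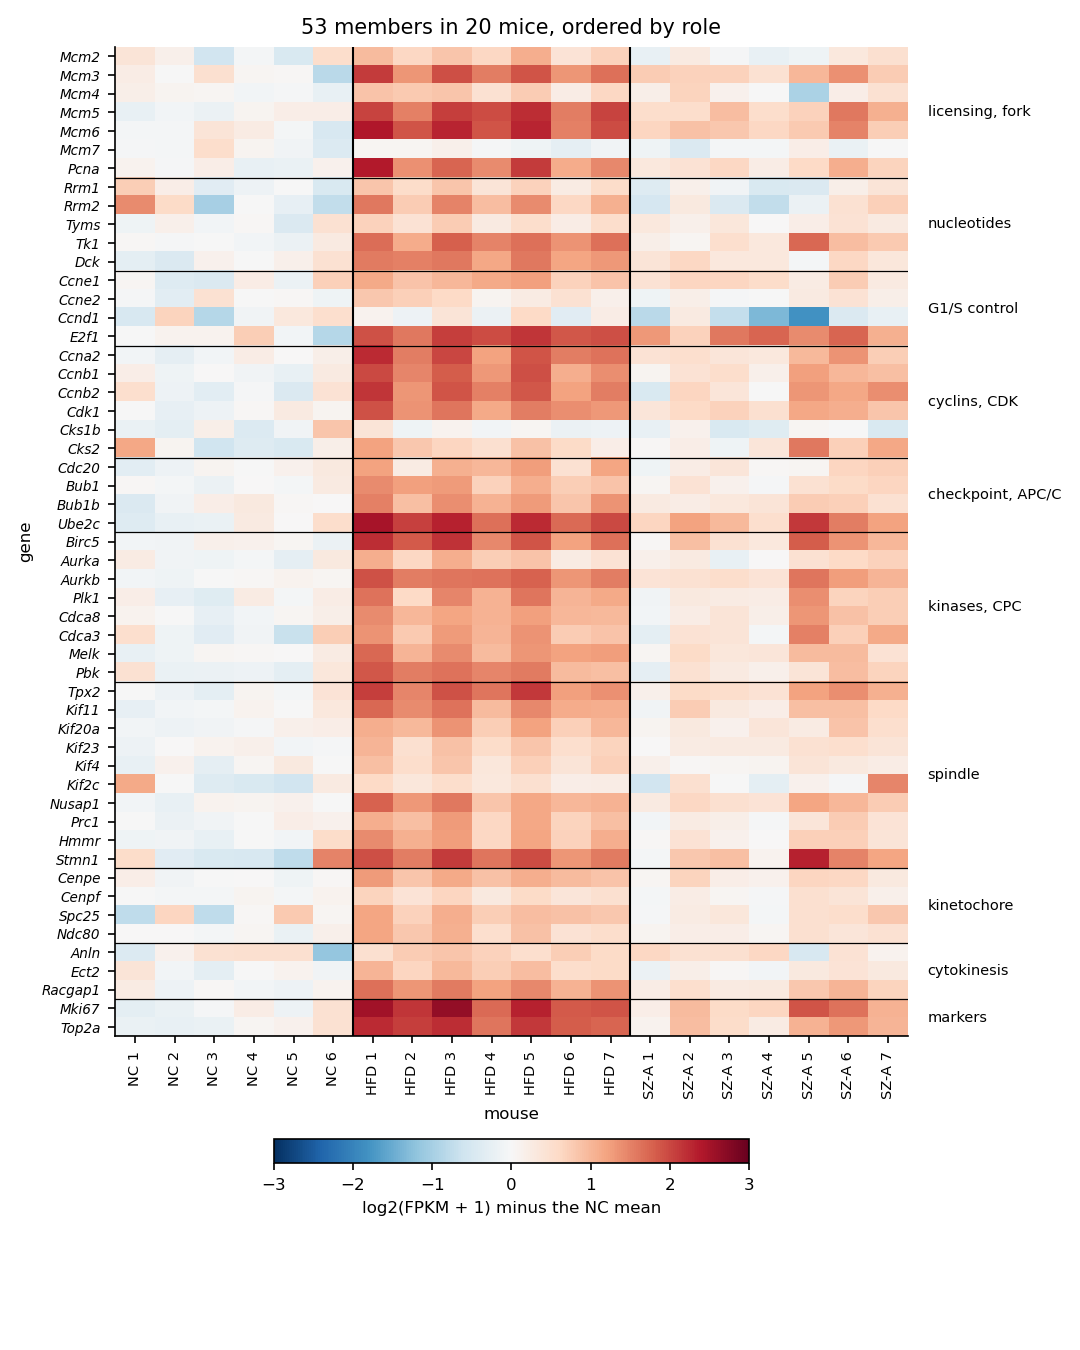
The 53 members (rows, ordered by role, named at the right) in the 20 mice (columns), coloured by log2(FPKM + 1) minus the mean of the NC mice, red for higher and blue for lower, on a scale from -3 to 3. HFD columns are red for nearly all rows, SZ-A columns are paler, SZ-A replicates 5 and 6 hold the highest value of their group in 19 members each, and Ccnd1 is blue in SZ-A replicates 4 and 5.

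Cyclins of mitosis and their kinase moved together except for the small Cks proteins. Cdk1, the kinase that starts mitosis, ranged from 0.357 to 0.958 FPKM in the 6 NC mice (median 0.64), from 2.58 to 5.13 FPKM in the 7 HFD mice (median 3.27) and from 1.08 to 2.63 FPKM in the 7 SZ-A mice (median 1.6). HFD mice stood above all NC mice, and the highest SZ-A mouse slightly exceeded the lowest HFD mouse. Its log2 fold changes were 1.46 (SE 0.13, adjusted p = 1.4e-06) for HFD against NC and -0.72 (SE 0.15, adjusted p = 0.0036) for SZ-A against HFD. Ccna2 averaged 0.602 ± 0.205 (NC), 4.37 ± 1.27 (HFD) and 1.6 ± 0.759 (SZ-A) FPKM ± SD, with log2 fold changes of 1.72 (SE 0.15, adjusted p = 1.6e-06) and -1.06 (SE 0.18, adjusted p = 0.0016). Ccnb1 averaged 0.312 ± 0.18 (NC), 2.96 ± 0.928 (HFD) and 1.08 ± 0.63 (SZ-A) FPKM ± SD, with log2 fold changes of 1.57 (SE 0.15, adjusted p = 3.7e-06) and -0.95 (SE 0.20, adjusted p = 0.004). Ccnb2 averaged 1.78 ± 0.762 (NC), 7.58 ± 2.04 (HFD) and 3.59 ± 2.05 (SZ-A) FPKM ± SD, with log2 fold changes of 1.64 (SE 0.19, adjusted p = 2.1e-05) and -1.01 (SE 0.27, adjusted p = 0.017). These are the A and B cyclins, and each was called in both comparisons. Cks2 averaged 5.28 ± 3.38 (NC), 8.41 ± 2.16 (HFD) and 8.19 ± 4.35 (SZ-A) FPKM ± SD, with log2 fold changes of 0.69 (SE 0.26, adjusted p = 0.047) and -0.13 (SE 0.25, adjusted p = 0.74), and Cks1b averaged 14.6 ± 5.65 (NC), 14 ± 2.23 (HFD) and 12.2 ± 2.26 (SZ-A) FPKM ± SD, with log2 fold changes of 0.0015 (SE 0.18, adjusted p = 0.995) and -0.19 (SE 0.12, adjusted p = 0.28). They are adaptors of the Cdk complexes, and Cks2 passed the test only for its rise, a call lost with all 3 groups in the fit, under quantile normalization and by voom, while Cks1b passed neither.

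All 4 members of the spindle checkpoint and the APC/C were called in both comparisons. Ube2c, the ubiquitin-conjugating enzyme of the APC/C, ranged from 0.525 to 1.85 FPKM in the 6 NC mice (median 0.866), from 5.24 to 10.1 FPKM in the 7 HFD mice (median 7.26) and from 1.84 to 7.7 FPKM in the 7 SZ-A mice (median 3.59). HFD and NC mice did not overlap, and SZ-A replicate 5 lay inside the HFD range. The log2 fold changes were 2.06 (SE 0.18, adjusted p = 1.1e-06) for HFD against NC and -0.88 (SE 0.22, adjusted p = 0.011) for SZ-A against HFD. Cdc20 averaged 1.57 ± 0.376 (NC), 3.93 ± 1.2 (HFD) and 2.14 ± 0.711 (SZ-A) FPKM ± SD, with log2 fold changes of 0.91 (SE 0.18, adjusted p = 0.0012) and -0.64 (SE 0.18, adjusted p = 0.022), the activator of the APC/C. Bub1 averaged 0.221 ± 0.13 (NC), 1.55 ± 0.50 (HFD) and 0.545 ± 0.286 (SZ-A) FPKM ± SD, with log2 fold changes of 1.05 (SE 0.13, adjusted p = 2.7e-05) and -0.72 (SE 0.14, adjusted p = 0.0032), and Bub1b averaged 0.948 ± 0.332 (NC), 3.45 ± 0.788 (HFD) and 1.65 ± 0.415 (SZ-A) FPKM ± SD, with log2 fold changes of 1.19 (SE 0.15, adjusted p = 2.8e-05) and -0.74 (SE 0.13, adjusted p = 0.0018), both checkpoint proteins that hold the APC/C back, and for both the SZ-A mice stood below all HFD mice.

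Mitotic kinases, the chromosomal passenger complex and Cdca3, grouped with them here, made up 8 members, of which 8 were higher in HFD and 6 lower in SZ-A. Aurkb averaged 0.403 ± 0.089 (NC), 3.31 ± 0.564 (HFD) and 1.59 ± 0.939 (SZ-A) FPKM ± SD, with log2 fold changes of 1.61 (SE 0.10, adjusted p = 6e-08) and -0.8 (SE 0.18, adjusted p = 0.0073). Birc5 averaged 0.425 ± 0.136 (NC), 3.97 ± 1.22 (HFD) and 1.75 ± 1.24 (SZ-A) FPKM ± SD, with log2 fold changes of 1.77 (SE 0.16, adjusted p = 1.5e-06) and -0.93 (SE 0.25, adjusted p = 0.016). Cdca8 averaged 0.494 ± 0.146 (NC), 2.25 ± 0.379 (HFD) and 1.25 ± 0.81 (SZ-A) FPKM ± SD, with log2 fold changes of 1.12 (SE 0.10, adjusted p = 1.1e-06) and -0.6 (SE 0.18, adjusted p = 0.029). These encode the kinase, survivin and borealin of the passenger complex, which corrects chromosome attachment. Plk1 averaged 0.924 ± 0.336 (NC), 3.54 ± 1.12 (HFD) and 1.82 ± 1.08 (SZ-A) FPKM ± SD, with log2 fold changes of 1.22 (SE 0.17, adjusted p = 0.00012) and -0.72 (SE 0.22, adjusted p = 0.027), the Polo kinase. Melk averaged 0.222 ± 0.138 (NC), 1.98 ± 0.551 (HFD) and 0.79 ± 0.419 (SZ-A) FPKM ± SD, with log2 fold changes of 1.27 (SE 0.12, adjusted p = 3.1e-06) and -0.75 (SE 0.15, adjusted p = 0.0037). Pbk averaged 0.722 ± 0.402 (NC), 3.59 ± 1.06 (HFD) and 1.25 ± 0.579 (SZ-A) FPKM ± SD, with log2 fold changes of 1.41 (SE 0.18, adjusted p = 4.4e-05) and -1.04 (SE 0.19, adjusted p = 0.0019). Melk and Pbk are mitotic serine/threonine kinases. Aurka averaged 1.31 ± 0.364 (NC), 2.87 ± 0.83 (HFD) and 1.84 ± 0.62 (SZ-A) FPKM ± SD, with log2 fold changes of 0.73 (SE 0.15, adjusted p = 0.002) and -0.44 (SE 0.16, adjusted p = 0.063), the kinase of the spindle poles. Cdca3 averaged 1.39 ± 0.907 (NC), 3.76 ± 0.876 (HFD) and 2.59 ± 1.63 (SZ-A) FPKM ± SD, with log2 fold changes of 1.06 (SE 0.21, adjusted p = 0.0016) and -0.51 (SE 0.24, adjusted p = 0.14), a trigger of entry into mitosis. Aurka and Cdca3 passed the test for HFD against NC only, and SZ-A replicate 5 held the highest value of the SZ-A mice for Cdca3.

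Of 10 spindle genes, 9 were higher in HFD and 8 lower in SZ-A. Tpx2 averaged 0.744 ± 0.309 (NC), 4.68 ± 1.4 (HFD) and 2.05 ± 0.973 (SZ-A) FPKM ± SD, with log2 fold changes of 1.68 (SE 0.17, adjusted p = 4.5e-06) and -0.92 (SE 0.20, adjusted p = 0.006), an activator of Aurora A on spindles. Kif11 averaged 0.604 ± 0.223 (NC), 3.08 ± 0.822 (HFD) and 1.33 ± 0.592 (SZ-A) FPKM ± SD, with log2 fold changes of 1.33 (SE 0.14, adjusted p = 7.5e-06) and -0.83 (SE 0.17, adjusted p = 0.0045), the motor that pushes the spindle poles apart. For Kif11 the SZ-A mice stood below all HFD mice. Kif20a averaged 0.547 ± 0.162 (NC), 2.14 ± 0.505 (HFD) and 0.99 ± 0.391 (SZ-A) FPKM ± SD, with log2 fold changes of 1.01 (SE 0.11, adjusted p = 1.5e-05) and -0.66 (SE 0.13, adjusted p = 0.0032). Kif23 averaged 0.357 ± 0.107 (NC), 1.23 ± 0.332 (HFD) and 0.679 ± 0.185 (SZ-A) FPKM ± SD, with log2 fold changes of 0.7 (SE 0.10, adjusted p = 0.00011) and -0.4 (SE 0.10, adjusted p = 0.014). Kif4 averaged 0.277 ± 0.19 (NC), 0.981 ± 0.293 (HFD) and 0.437 ± 0.13 (SZ-A) FPKM ± SD, with log2 fold changes of 0.63 (SE 0.12, adjusted p = 0.00088) and -0.45 (SE 0.10, adjusted p = 0.0051). These 3 are kinesins of the central spindle and of chromosomes. Nusap1 averaged 0.553 ± 0.139 (NC), 2.76 ± 0.922 (HFD) and 1.53 ± 0.583 (SZ-A) FPKM ± SD, with log2 fold changes of 1.25 (SE 0.15, adjusted p = 1.9e-05) and -0.57 (SE 0.17, adjusted p = 0.025). Prc1 averaged 0.379 ± 0.136 (NC), 1.68 ± 0.45 (HFD) and 0.676 ± 0.347 (SZ-A) FPKM ± SD, with log2 fold changes of 0.94 (SE 0.12, adjusted p = 2.8e-05) and -0.68 (SE 0.14, adjusted p = 0.0036). Hmmr averaged 0.259 ± 0.274 (NC), 1.61 ± 0.502 (HFD) and 0.60 ± 0.333 (SZ-A) FPKM ± SD, with log2 fold changes of 1.05 (SE 0.15, adjusted p = 0.00012) and -0.71 (SE 0.15, adjusted p = 0.0045). They bind or bundle spindle microtubules. Stmn1 averaged 9.09 ± 7.26 (NC), 27.6 ± 5.55 (HFD) and 18.1 ± 11.5 (SZ-A) FPKM ± SD, with log2 fold changes of 1.72 (SE 0.31, adjusted p = 0.00073) and -0.76 (SE 0.29, adjusted p = 0.076), a protein that destabilises microtubules. The Stmn1 level was 41.1 FPKM in SZ-A replicate 5, above every HFD mouse, and its difference between SZ-A and HFD did not pass the test.

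Kif2c (ENSMUSG00000028678, chr4:117159639-117182639, minus strand), a kinesin that takes microtubules apart at kinetochores, was the remaining spindle gene. It ranged from 0.181 to 2.84 FPKM in the 6 NC mice (median 0.539), from 0.989 to 1.62 FPKM in the 7 HFD mice (median 1.21) and from 0.175 to 3.82 FPKM in the 7 SZ-A mice (median 0.723). NC replicate 1 and SZ-A replicate 7 held the 2 highest values of all mice, and the groups overlapped. On the log2 scale the differences were 0.38 (SE 0.23, adjusted p = 0.2) for HFD against NC and -0.22 (SE 0.23, adjusted p = 0.51) for SZ-A against HFD. Epididymis markers summed to 662 and 262 FPKM in those 2 mice. The sums were also high in NC replicates 6 and 2 and SZ-A replicate 2, at 1111, 237 and 289 FPKM. Kif2c was at 1.12, 0.735 and 1.43 FPKM in these mice. In both groups the mice high in epididymis markers stood above all the others of their group in Kif2c. The 3 germ cell markers in the table summed to 4.8 FPKM in NC replicate 1 (0.802 to 7.27 over the NC mice). In SZ-A replicate 7 they summed to 17.2 FPKM (6.8 to 36.5 over the SZ-A mice). Whether epididymis or germ cell RNA had a part in the Kif2c values was not tested. With the 5 mice high in epididymis markers left out, a choice made after seeing the data, the log2 fold changes of Kif2c were 0.85 (adjusted p = 7.8e-05) and -0.54 (adjusted p = 0.0074). Without NC replicate 1 alone, or SZ-A replicate 7 alone, Kif2c also passed the test in the comparison that mouse belongs to.

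Kinetochore and cytokinesis genes were low but moved the same way. All 4 kinetochore members were called in both comparisons. Cenpe averaged 0.241 ± 0.0979 (NC), 1.5 ± 0.305 (HFD) and 0.62 ± 0.294 (SZ-A) FPKM ± SD, with log2 fold changes of 1.0 (SE 0.09, adjusted p = 1.6e-06) and -0.63 (SE 0.12, adjusted p = 0.0023). Cenpf averaged 0.112 ± 0.0605 (NC), 0.57 ± 0.156 (HFD) and 0.266 ± 0.182 (SZ-A) FPKM ± SD, with log2 fold changes of 0.49 (SE 0.07, adjusted p = 0.00015) and -0.32 (SE 0.10, adjusted p = 0.027). Spc25 averaged 1.36 ± 1.02 (NC), 3.1 ± 0.517 (HFD) and 1.79 ± 0.599 (SZ-A) FPKM ± SD, with log2 fold changes of 0.9 (SE 0.24, adjusted p = 0.0086) and -0.57 (SE 0.14, adjusted p = 0.0084). Ndc80 averaged 0.196 ± 0.0985 (NC), 1.07 ± 0.421 (HFD) and 0.436 ± 0.168 (SZ-A) FPKM ± SD, with log2 fold changes of 0.77 (SE 0.12, adjusted p = 0.00028) and -0.51 (SE 0.12, adjusted p = 0.0094), the last 2 being subunits of the complex that grips microtubule ends. The difference of Spc25 between SZ-A and HFD did not pass with all 3 groups in the fit (adjusted p = 0.075). Of the 3 cytokinesis genes, Racgap1, a component of the centralspindlin complex, ranged from 0.461 to 0.92 FPKM in the 6 NC mice (median 0.605), from 2.37 to 4.08 FPKM in the 7 HFD mice (median 3.17) and from 0.91 to 2.32 FPKM in the 7 SZ-A mice (median 1.3). HFD mice overlapped neither other group. By limma, the log2 fold changes were 1.37 (SE 0.11, adjusted p = 6.6e-07) for HFD against NC and -0.83 (SE 0.14, adjusted p = 0.0012) for SZ-A against HFD. Ect2 averaged 0.547 ± 0.265 (NC), 1.64 ± 0.37 (HFD) and 0.699 ± 0.252 (SZ-A) FPKM ± SD, with log2 fold changes of 0.78 (SE 0.12, adjusted p = 0.00023) and -0.64 (SE 0.11, adjusted p = 0.0019), the exchange factor that starts the contractile ring. Anln averaged 1.86 ± 1.06 (NC), 3.18 ± 0.397 (HFD) and 2.39 ± 0.777 (SZ-A) FPKM ± SD, with log2 fold changes of 0.65 (SE 0.24, adjusted p = 0.043) and -0.33 (SE 0.15, adjusted p = 0.13), a scaffold of the ring, which passed the test for HFD against NC only, a call lost with a pseudocount of 0.1, by voom and with the mice high in epididymis markers left out.

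Promoters of the members were read from RefSeq (GRCm38.p6), where 44 of the 53 had an entry, 13 of 16 G1/S and 31 of 37 mitotic. Each window held 250 bases before and 50 after the first listed start of a gene. The known motifs below were searched on both strands: CCAAT, the site of NF-Y; the cell cycle homology region, TTTGAA or TTTAAA, which the MuvB complex binds; and the E2F site, as TTTCCCGC, TTTGGCGC or TTTCGCGC. The homology region lay in 27 of 31 mitotic windows (87.1%), in 6 of 13 G1/S windows (46.2%) and in 27.8% of all 27025 windows. CCAAT lay in 25 of the mitotic (80.6%), in 8 of the G1/S (61.5%) and in 37.9% of all windows, and both motifs lay together in 23 (74.2%), in 3 (23.1%) and in 10.9%. An E2F site lay in 1 of the mitotic (3.23%), in 4 of the G1/S (30.8%) and in 1.91% of all windows. A match is a run of letters and not a bound site, and no binding was measured here. TTTAAA reads the same on both strands and was counted once.

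The promoters of 6 members are shown to let these motifs be seen beside the values, with the 150 bases before the start written 5′ to 3′ and matches of any of the motifs, on either strand, in capitals. They belong to Mcm5 (chr8:75109359-75109508, plus strand), Mcm6 (chr1:128359706-128359855, minus strand), Ccnb1 (chr13:100786487-100786636, minus strand), Cdk1 (chr10:69352913-69353062, minus strand), Mki67 (chr7:135716380-135716529, minus strand) and Top2a (chr11:99024190-99024339, minus strand). The first 2 are G1/S members with an E2F match, and the other 4 are mitotic members with a homology region. The split is not clean. Mcm5 also had a homology region in its window, outside the bases shown, and Cdk1 was the 1 mitotic member with an E2F match, TTTCGCGC.
Mcm5: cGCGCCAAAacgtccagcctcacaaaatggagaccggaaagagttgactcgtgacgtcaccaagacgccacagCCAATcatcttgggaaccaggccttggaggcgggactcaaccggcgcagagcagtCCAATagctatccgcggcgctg
Mcm6: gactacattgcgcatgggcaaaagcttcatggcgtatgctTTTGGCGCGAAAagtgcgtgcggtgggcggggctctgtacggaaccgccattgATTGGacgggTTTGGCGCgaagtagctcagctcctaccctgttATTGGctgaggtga
Ccnb1: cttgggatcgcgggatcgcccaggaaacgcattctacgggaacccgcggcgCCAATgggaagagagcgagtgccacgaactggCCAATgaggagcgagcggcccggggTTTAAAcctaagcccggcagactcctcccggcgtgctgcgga
Cdk1: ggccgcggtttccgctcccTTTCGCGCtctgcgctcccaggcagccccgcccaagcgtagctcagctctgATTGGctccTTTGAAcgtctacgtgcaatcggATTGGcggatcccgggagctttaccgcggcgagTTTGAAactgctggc
Mki67: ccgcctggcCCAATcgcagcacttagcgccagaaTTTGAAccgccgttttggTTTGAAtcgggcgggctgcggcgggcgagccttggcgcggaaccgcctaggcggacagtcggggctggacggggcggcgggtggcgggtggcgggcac
Top2a: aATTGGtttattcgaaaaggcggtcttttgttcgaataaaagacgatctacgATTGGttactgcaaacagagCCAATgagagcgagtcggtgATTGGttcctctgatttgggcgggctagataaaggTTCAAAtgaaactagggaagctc

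Beyond the members, a wider list of replication, G1/S and mitosis genes moved in part. Over all genes tested, 21.0% were higher and 20.1% lower in HFD, and 9.47% were higher and 13.3% lower in SZ-A than in HFD. Of 65 other replication genes tested, 29 were higher and 7 lower in HFD, and 3 were higher and 18 lower in SZ-A than in HFD. Cdt1, which licenses origins, averaged 0.97 ± 0.335 (NC), 9.17 ± 2.15 (HFD) and 4.08 ± 1.99 (SZ-A) FPKM ± SD, with log2 fold changes of 2.36 (SE 0.16, adjusted p = 1.8e-07) and -1.06 (SE 0.22, adjusted p = 0.004). Asf1b, a histone chaperone, and Uhrf1, which maintains DNA methylation, had log2 fold changes of 1.52 and -0.95 and of 1.42 and -0.83 (adjusted p at most 0.0043 in each). Of 76 other mitosis genes tested, 51 were higher and 3 lower in HFD, and 1 was higher and 35 lower in SZ-A. Incenp, of the passenger complex, Tubb5, a tubulin, and Ckap2l, a spindle protein, had log2 fold changes of 1.65 and -0.86, of 1.46 and -0.92 and of 1.38 and -0.81 (adjusted p at most 0.018 in each).

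Of 30 other G1/S control genes, 11 were higher and 3 lower in HFD, and 0 were higher and 7 lower in SZ-A (limma). In SZ-A, 1 was higher at an unadjusted p under 0.05 and 0 by voom. The shares of all genes tested were 21.0% higher and 20.1% lower in HFD, and 9.47% higher and 13.3% lower in SZ-A. Cdk6, a partner of D-type cyclins, had log2 fold changes of 1.2 (SE 0.19, adjusted p = 0.00024) and -0.83 (SE 0.18, adjusted p = 0.0061), and Foxm1, a driver of mitotic genes, of 1.07 (SE 0.11, adjusted p = 5.1e-06) and -0.65 (SE 0.13, adjusted p = 0.004). E2f5, a repressor of the E2F family, fell by 0.96 on the log2 scale in HFD (adjusted p = 0.012). Rbl1, a retinoblastoma relative, fell by 0.60 on the log2 scale in SZ-A (adjusted p = 0.004). Of the other 16 APC/C genes, 2 were higher and 2 lower in HFD and 2 were higher and 0 lower in SZ-A (2 lower at an unadjusted p under 0.05, 0 by voom). These counts were near or below the shares of all genes. Both APC/C genes called higher in SZ-A were lower in HFD, unlike the members. Anapc13 averaged 32.1 ± 20.7 (NC), 10.1 ± 1.68 (HFD) and 24.6 ± 10.8 (SZ-A) FPKM ± SD, with log2 fold changes of -1.33 (SE 0.34, adjusted p = 0.0075) and 1.11 (SE 0.22, adjusted p = 0.0035). Anapc16 averaged 16.7 ± 2.17 (NC), 9.06 ± 1.02 (HFD) and 14.1 ± 1.92 (SZ-A) FPKM ± SD, with log2 fold changes of -0.81 (SE 0.11, adjusted p = 6.5e-05) and 0.58 (SE 0.10, adjusted p = 0.0017). Anapc2 rose in HFD with a log2 difference of 0.56 (SE 0.09, adjusted p = 0.00035).

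CDK inhibitors brake the cycle. Of 8 in the table, 2 were higher in HFD by limma and 3 by voom (21.0% and 20.7% of all genes). Between SZ-A and HFD 0 were called (limma; 0 at an unadjusted p under 0.05 and 0 by voom), where 13.3% of all genes were lower and 9.47% higher by limma and 13.6% and 9.53% by voom. Cdkn2a, which encodes 2 cell cycle inhibitors, averaged 0.254 ± 0.14 (NC), 2.2 ± 1.27 (HFD) and 1.37 ± 0.77 (SZ-A) FPKM ± SD. Its log2 fold changes were 1.26 (SE 0.22, adjusted p = 0.00048) and -0.4 (SE 0.25, adjusted p = 0.25), and SZ-A stood above NC with 0.86 (SE 0.19, adjusted p = 0.016). Cdkn2d rose in HFD with 0.48 (SE 0.17, adjusted p = 0.035) and had 0.04 (SE 0.14, adjusted p = 0.84) in SZ-A. The log2 fold changes of the other 6, none of which passed the test in either comparison, were for Cdkn1a 0.58 and -0.25, for Cdkn1b -0.32 and 0.03, for Cdkn1c -0.02 and 0.13, for Cdkn2b 0.33 and -0.24, for Cdkn2c 0.32 and -0.12 and for Cdkn3 0.49 and -0.27.

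SZ-A mice still stood above NC mice for 12 members, and 0 were lower (limma, 14718 genes tested, 4.15% higher and 0.455% lower; 31 higher and 1 lower at an unadjusted p under 0.05, 11 and 0 by voom, with 3.81% and 0.340% of all genes). The 12 were Mcm3, Mcm5, Mcm6, E2f1, Ccna2, Cdk1, Ube2c, Aurkb, Tpx2, Nusap1, Racgap1 and Mki67. E2f1 had the largest log2 fold change, 1.36, and Ube2c followed with 1.17 (SE 0.24, adjusted p = 0.013). The groups did not overlap for 7 members (3.22% of all genes). On the log2(FPKM + 1) scale 0 passed a log2 fold change of 1.5 (1.73% of all genes) against 11 for a fold change of 1.5 (3.90% of all genes). The count was unstable and ran from 0 to 20 over the alternatives with the adjusted p alone. It fell to 1, of 130 genes called higher in all, with the 5 mice high in epididymis markers left out. That fit kept only NC replicates 3, 4 and 5 and SZ-A replicates 1, 3, 4, 5 and 6. The members that lost their call there kept the sign of their log2 fold change, which went from 0.83 to 0.82 for Mcm5 and from 0.85 to 0.67 for Mcm6. The count fell to 6 without NC replicate 2 and to 7 without NC replicate 1, NC replicate 5, SZ-A replicate 6 or SZ-A replicate 7. It was 14 without NC replicate 6 and SZ-A replicate 5.

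In the HFD and SZ-A groups the mice that most often held the highest value of a member were also highest in macrophage markers, which was not so in NC mice. The median FPKM of the mitotic members was 0.461 to 0.807 (NC), 2.37 to 4.22 (HFD) and 0.818 to 2.17 (SZ-A), and that of the G1/S members 1.68 to 2.6, 5.53 to 8.29 and 2.38 to 4.84. HFD replicate 1 was the highest of its group in 35 of the 53 members and HFD replicate 6 the lowest in 26. The 10 macrophage markers, among which Lyz2, Cd68 and Mpeg1 had the highest levels, summed to 7980 FPKM in HFD replicate 1 and 2614 in HFD replicate 6, the highest and lowest of the HFD mice. SZ-A replicates 5 and 6, each the highest of its group in 19 members, had macrophage sums of 3749 and 2965 against 1152 to 1363 in the other SZ-A mice. NC replicate 6, the highest of its group in 24 members, had the lowest macrophage sum of the NC mice (48), and NC replicate 3, with the highest (581), was the highest in 6 members. SZ-A replicate 5 had the highest mitotic levels most often (17 of 37 members) but the lowest G1/S median of its group. Without SZ-A replicate 5, Mcm4, Cdca3 and Stmn1 also passed the test against HFD, and 45 members did in all. Leaving out this mouse also raised the number of all genes called lower, from 1957 to 2394.

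**Figure D4:**
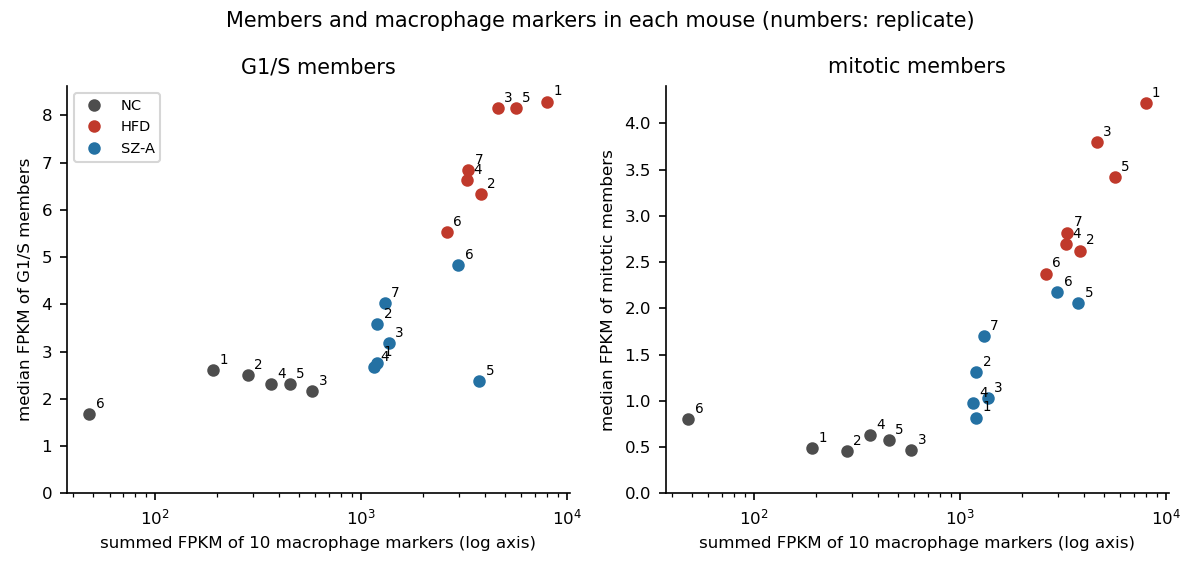
Median FPKM of the 16 G1/S members (left) and the 37 mitotic members (right) in each mouse against the summed FPKM of 10 macrophage markers (log axis), with replicate numbers beside the points. HFD replicate 1 is at the top right and HFD replicate 6 the lowest HFD point in both panels, and SZ-A replicate 5 is low in G1/S but not in mitotic members.

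Between groups the macrophage markers moved as the members did. Their summed level was 48 to 581 (NC), 2614 to 7980 (HFD) and 1152 to 3749 FPKM (SZ-A), 9 of 10 were higher in HFD than in NC, and 9 of 10 were below HFD under SZ-A. Among all genes tested, 21.0% were higher and 20.1% lower in HFD, and 9.47% were higher and 13.3% lower in SZ-A than in HFD. Of 6 markers of lipid-associated macrophages, 5 were higher in HFD and 4 lower in SZ-A (185 to 960, 1563 to 2808 and 736 to 1907 FPKM summed). Preadipocyte and fibroblast markers were higher in 4 and lower in 1 of 6 in HFD and lower in 5 in SZ-A (50.4 to 525, 759.8 to 1101 and 203 to 487 FPKM). Every gene of the deposited table was above 0 in every mouse, so that these markers were too says nothing about the cells. The part of these cells in the result was not tested.

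Of 7 T cell markers, 1 was higher in HFD and 1 lower in SZ-A, with summed levels of 3.63 to 6.18 (NC), 4.39 to 10.4 (HFD) and 3.23 to 10.7 FPKM (SZ-A). For 2 B cell markers (0.143 to 8.7, 2.57 to 16.6 and 0.57 to 11.1 FPKM), 5 endothelial markers (3.84 to 267, 62.1 to 191 and 90.8 to 218) and 1 mesothelial marker (0.0369 to 9.05, 1.4 to 5.69 and 0.425 to 3.55), limma called 0 in either comparison. The lists held 4 B cell and 5 mesothelial markers, and the others of them were not in the table. At an unadjusted p under 0.05, 1 endothelial marker was higher and the mesothelial marker lower in SZ-A than in HFD, and 0 B cell markers passed. Of 7 adipocyte markers, 1 was higher and 2 lower in HFD and 2 were higher in SZ-A (423 to 19554, 892 to 4469 and 3149 to 10669 FPKM). All 3 epididymis markers in the table, of 9 listed, were lower in HFD and 2 were higher in SZ-A (40.9 to 1111, 3.92 to 7.66 and 6.48 to 289 FPKM). Of 2 germ cell markers tested, 1 was higher in HFD, and the 3 in the table, of 7 listed, summed to 0.802 to 7.27, 5.54 to 18.7 and 6.8 to 36.5 FPKM. Beside these counts, 21.0% of all genes were higher and 20.1% lower in HFD, and 9.47% were higher and 13.3% lower in SZ-A. The T cell, adipocyte and germ cell counts are too small to be set apart from those shares.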

How the data were processed

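Polyadenylated RNA of the eWAT of 20 mice was sequenced as paired-end reads of 150 bases. According to the methods of the study, the authors aligned reads to GRCm38 with HISAT2 2.0.5, and the submitters' processing notes name featureCounts 1.5.0-p3. The authors deposited FPKM of 14776 genes, all above 0 in all mice. The filter on genes and the annotation release are not given in the sources used here. Reads per gene were recovered from FPKM and exon lengths of GENCODE M21 (95.9% to 96.3% of values under 1000 reads came out whole within 0.01 reads) and gave the depth and the voom alternative.

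Groups came from the labels. Genes averaging 0.1 FPKM or more in the mice of a comparison were fitted with limma 3.58.1 (R 4.3.3; lmFit, eBayes with trend) on log2(FPKM + 1), only the groups compared entering the fit, with Benjamini-Hochberg adjustment over all genes tested. An adjusted p under 0.05 was called. The steps were tested on simulated data. The study used DESeq2, which works on read counts and was not run here. Of the fits here, only voom used the recovered reads. Tables and plots used Python 3.11.15, pandas 2.3.3, NumPy 2.4.6 and matplotlib 3.10.9. The members and lists were chosen with earlier results of these data known. Named are every member called, 6 fixed members (Mki67, Top2a, Cdk1, Pcna, Ccnd1 and E2f1), the members not called, each CDK inhibitor and, of each list of other cell cycle genes, up to 3 called with the largest changes per comparison. Further members of those lists are given by counts. Marker lists were macrophage, lipid-associated macrophage, T cell, B cell, adipocyte, preadipocyte and fibroblast, endothelial, mesothelial, epididymis epithelium and germ cell. Alternatives were a pseudocount of 0.1, no filter, a floor of 1 FPKM on the mean, median-ratio scaling, quantile normalization, voom, a fit of all 3 groups, the replicate number as a block, the log2 fold threshold of the study, and leaving out each mouse. Leaving out the mice high in epididymis markers, or NC replicate 6 and SZ-A replicate 5, and a plain fold change of 1.5, were added after seeing the data.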

Additional observations from a re-analysis of the deposited data

Results flagged for a closer look

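In 159 groups (53 members in 3 groups of mice), 3 held a mouse far from the others by Dixon's criterion, which chance meets in about 1 in 20 groups. The criterion was applied to log2(FPKM + 1), while the values below are FPKM. Mcm4 was at 1.98 FPKM in SZ-A replicate 5, against 4.66 to 8.14 in the other SZ-A mice. Mcm6 was at 9.44 FPKM in SZ-A replicate 6, against 4.78 to 5.92. Hmmr was at 0.809 FPKM in NC replicate 6, against 0.0688 to 0.232 in the other NC mice.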

How the results depend on the processing

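Over the alternatives that keep the adjusted p as the only threshold, the members higher in HFD than in NC numbered 42 to 49 and those lower in SZ-A than in HFD 38 to 45. The 42 came with the floor of 1 FPKM on the mean, which also gave 38. That floor left Kif23, Kif4, Cenpf and Ndc80 untested in both comparisons, and Bub1, Hmmr and Cenpe for HFD against NC. No member still tested lost its call under it in these comparisons. Leaving out each mouse gave 46 to 49 and 37 to 45. With a log2 fold change of 1.5 added on the log2(FPKM + 1) scale, 16 were higher in HFD, 0 lower in SZ-A than in HFD and 0 higher in SZ-A than in NC. With a plain fold change of 1.5 these numbered 45, 34 and 11. The 12 members higher in SZ-A than in NC became 20 with all 3 groups in the fit, 7 under quantile normalization, 1 without the mice high in epididymis markers, and 6 to 17 with each mouse left out. With the replicate number as a block, 47, 38 and 0 members were called in the 3 comparisons, and the block ended the calls of Tyms and Anln (HFD against NC, adjusted p = 0.071 and 0.075), of Ccnd1, Cdca8, Nusap1 and Cenpf (SZ-A against HFD, 0.052 to 0.078) and of all 12 members higher in SZ-A than in NC (adjusted p at most 0.17). The numbers were not shown to pair the mice: correlations of same-numbered mice's deviations from group means ran from -0.30 to 0.31, from -0.40 to 0.39 and from -0.41 to 0.59. No direction was reversed among the called members. A fit of all 3 groups ended the calls of Cks2 (HFD against NC) and of E2f1, Ccnd1 and Spc25 (SZ-A against HFD). Of the members not called for SZ-A against HFD, Mcm4, Aurka and Kif2c passed without the mice high in epididymis markers, Mcm4 also with all 3 groups in the fit, and Tyms, Ccne2 and Aurka under quantile normalization, and for HFD against NC Kif2c passed without those mice. The cause was not tested. Leaving out a single mouse lost calls, at adjusted p of at most 0.095, for Anln, Ccne2 and Cks2 (HFD against NC; 9, 4 and 10 mice) and for Ccnd1, Cdca8, Cenpf, Plk1, Nusap1 and Cdc20 (SZ-A against HFD; 7, 6, 6, 6, 5 and 1 mice). Depth limits what can be said of the 7 members with fewer than 10 reads in at least 1 mouse.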
